A study of Ovis aries with 30 samples.

Results

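The 6 genes AKAP1, CCL1, CACNA1G, ABCC8, ASPG and PRSS35 were followed, lamb by lamb, in brown adipose tissue (BAT) and thyroid tissue of newborn lambs. They are 6 of the 28524 genes in the count table and were chosen by their fold change in BAT between the treated lambs and the controls, which was among the largest of all genes. The size of that difference is therefore a description and was not tested. Tests were kept for what the choice did not use, namely cold against ambient temperature and the same genes in thyroid tissue. However, the BAT libraries in the first of these also took part in the choice, and the thyroid libraries come from the same lambs.

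RNA was sequenced from BAT lying around the kidneys and from the thyroid of 15 Romney lambs born as twins, with 1 lamb taken per ewe. The cold group (n = 6) was kept at 4 °C for 2 days, the ambient temperature (AT) group (n = 6) was kept at 20–22 °C for 2 days, and the control group (n = 3) was sampled at the start, within a day of birth (about 24 h after lambing by the sample labels). The treated lambs were thus 2 days older than the controls, so treatment and age cannot be told apart in any comparison with the controls. Lambs of equal age are compared between the cold and AT groups. No lamb carried a transgene or received a drug, and each of the 30 libraries holds 1 tissue of 1 lamb, named below by its number. The lambs are separate animals, so p-values measure the spread between animals. The 3 groups of a fit share the estimate of that spread, which in the main fits leaves out 1 control, lamb 238.

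Brown fat of newborn ruminants makes heat by letting protons leak through the mitochondrial inner membrane, and in sheep this fat depot turns into white fat soon after birth. Noradrenaline sets the process off through cAMP and its kinase, protein kinase A (PKA). Of the 6 genes, AKAP1 encodes an anchor that holds PKA at the outer mitochondrial membrane. CACNA1G encodes the pore of the low-voltage-activated calcium channel Cav3.1, and ABCC8 encodes SUR1, the sulfonylurea receptor that with KCNJ11 forms the ATP-sensitive potassium channel of pancreatic beta cells. CCL1 is a secreted chemokine that acts on the receptor CCR8, PRSS35 is a secreted protein of the serine protease family regarded as lacking protease activity, and ASPG is an asparaginase, which splits asparagine into aspartate and ammonia.

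The genes lie on 4 chromosomes of the Oar_rambouillet_v1.0 assembly. AKAP1 (chr11:59381836-59413194, minus strand, 12 exonic blocks), CCL1 (chr11:47986480-47989800, minus strand, 3 exonic blocks) and CACNA1G (chr11:27165309-27226742, plus strand, 38 exonic blocks) are all on chromosome 11, which holds 5.32% of the genes in the table. These are the 3 genes that were lower in the treated lambs than in controls 237 and 246. ABCC8 (chr15:37930949-38012088, plus strand, 40 exonic blocks), ASPG (chr18:69287970-69336184, plus strand, 18 exonic blocks) and PRSS35 (chr8:12017851-12035633, plus strand, 3 exonic blocks) were higher in the treated lambs than in those 2 controls. The third control, lamb 238, departs from this for AKAP1, CACNA1G and PRSS35. No other listed gene overlaps any of the 6, and KCNJ11, the partner of ABCC8, starts 4279 bases beyond its end. Counts are summed over all exons of a gene, so they do not tell exon, intron or untranslated region apart.

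The libraries held 31556500 to 37025998 counts in BAT and 25062784 to 30124871 in thyroid tissue. A pair of genes without symbols, LOC114112617 and LOC114115287, took 43.8 to 76.5% of the BAT counts, so values were scaled to the reference genes ACTB, RPL19 and HUWE1 and are called normalized counts below. Marker levels mostly followed the tissue labels. UCP1, the uncoupling protein that defines brown fat, had 359 to 40601 counts in the BAT libraries and 3 to 378 in those of the thyroid, and thyroid follicular markers summed to at least 1322900 normalized counts in each thyroid library. BAT of AT lamb 245 was the weakest match. Its UCP1 had 359 counts (195 normalized), the lowest in BAT, while the highest control thyroid had 378 counts. Its brown adipocyte markers summed to 810, the lowest sum in BAT. Its fibroblast and mesothelium sum (80038) was the highest in BAT, and it had the least AKAP1 (1114) and ABCC8 (92.2) of the AT lambs there. Markers of the kidney, the organ next to this fat, summed to at most 75.7 in BAT, and UMOD, a kidney gene, had at most 1 count.

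The third control, lamb 238, stood apart. The study left it out of both tissues for its outlying counts, and the fits here used the other 2 controls, 237 and 246. Its library was scaled by a factor of 0.465 from ACTB, while RPL19 alone gave 0.806 and HUWE1 alone gave 0.230, so its own values can move by that much. Its BAT held the highest sums of brown adipocyte markers (92733) and of white adipocyte markers (270410) of all 15 lambs. Each control is therefore given on its own throughout.

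AKAP1 showed the widest fall. Its normalized count in BAT was 217770 in control 237 and 72114 in control 246, where it ranked 6th and 7th of all genes by count. The cold lambs ranged from 3468 to 26246 with a median of 7868, and the AT lambs from 1114 to 12989 with a median of 4813. The least of these controls was thus still above the highest of the 12 treated lambs. Control 238, at 2048, did not share the high level: it was below all 6 cold lambs and within the range of the AT lambs. With single reference genes its value was between 1181 and 4133, and only at the upper end would a cold lamb, 244 at 3468, lie below it.

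The fitted log2 fold change (log2FC) of AKAP1 in BAT was −3.71 ± 0.75 (SE) for cold and −4.69 ± 0.76 for AT against the 2 controls. These comparisons share their controls, as do all pairs of this kind below. With the third control added, the values were −3.05 ± 0.89 and −4.03 ± 0.91. Control 237 carried part of the size, and without it they were −2.70 ± 0.90 and −3.68 ± 0.87. The brown adipocyte markers moved in the same direction, since their summed level was 23479 to 92733 in the 3 controls, 4951 to 17286 in the cold lambs and 810 to 17035 in the AT lambs. None of the 6 brown adipocyte genes tested, of 8 listed, was called in either treatment by the test described below. The part of the markers in the fall was not tested, and in bulk tissue fewer cells of a type and less RNA per cell cannot be told apart. Control 238 had the most of these markers and the least AKAP1 of the 3 controls.

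The calcium channel gene CACNA1G fell to a narrow band. It stood at 874 in control 237 and 330 in control 246. The cold lambs lay between 43.6 and 80.0 (median 75.9), and the AT lambs between 57.5 and 112 (median 67.9). The coefficient of variation was 25.1% in the cold and 26.9% in the AT lambs, the lowest of the 6 genes in the treated BAT. Control 238, with 11 counts or 23.7 normalized, was below all 12 treated lambs, and HUWE1 alone would set it at 47.8, above cold lambs 242 and 244. The log2FC was −3.17 ± 0.32 for cold and −3.04 ± 0.32 for AT, and −2.54 ± 0.56 and −2.40 ± 0.56 with all 3 controls. Without control 237 it was −2.31 ± 0.35 and −2.18 ± 0.36.

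ABCC8 showed the opposite pattern and, in the cold lambs, the widest spread of the 6 genes (coefficient of variation 124%). The controls were alike and low, at 9.36 in lamb 237, 10.1 in lamb 246 and 21.5 in lamb 238. The AT lambs ranged from 92.2 to 1672 with a median of 669, all above the 3 controls. The cold lambs did not form one level. Lambs 232 and 244 were at 646 and 618, the other 4 were between 15.3 and 85.8, and the lowest, lamb 239, was below control 238. The log2FC was 4.60 ± 1.73 for cold and 6.30 ± 1.84 for AT, and it changed little with all 3 controls (4.29 ± 1.32 and 5.98 ± 1.40).

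CCL1, the chemokine, was at 2276 in control 237, 706 in control 246 and 288 in control 238. The 6 cold lambs had 24.8 to 314 with a median of 85.1, and the AT lambs 23.4 to 241 with a median of 127. All 3 controls were above all 6 AT lambs, while 1 cold lamb, 232 at 314, was above control 238. The log2FC was −3.54 ± 0.76 for cold and −3.48 ± 0.76 for AT, and −3.01 ± 0.73 and −2.93 ± 0.73 with the third control. Without control 237 it was −2.46 ± 0.94 and −2.40 ± 0.94. Control 238 would be at 166 by RPL19 alone, below AT lambs 233 and 240. CCR8, its receptor, had 0 to 23 counts in BAT and was too low to test.

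PRSS35 had 1 count in control 237 and 1 count in control 246. The cold lambs had 10.4 to 64.9 normalized counts with a median of 34.5, and the AT lambs 27.7 to 157 with a median of 43.0. Against the 2 counts of both controls the ratio was 37.0 for cold (95% exact conditional interval 10.1 to 308) and 62.6 for AT (17.2 to 519), where the intervals cover counting error only. Control 238 reversed the picture, with 605 counts or 1302 normalized, far above every treated lamb. Summed adrenal cortex markers in BAT were highest in the control and in the treated lamb with the most PRSS35. Their sum was 3225 in control 238 against 452 and 486 in controls 237 and 246. In AT lamb 233 it was 1192, against 196 to 536 in the other treated lambs. The order was not kept in the other lambs, since AT lamb 245, with PRSS35 at 55.3, had the lowest sum. Controls 237 and 246, with 1 count each, lay within the range of the other treated lambs. STAR, which carries cholesterol into mitochondria, made up 2605 of the sum in control 238 and 854 in lamb 233. MC2R, the adrenal receptor for corticotropin, had no count in any control or AT lamb. Of the other listed markers, NR5A1 had at most 3 counts in any BAT library. HSD3B1 had 0 to 2 counts in the controls and 1 to 9 in the AT lambs. CYP11A1 had no count in the AT lambs but passed 3 counts among the controls. The part of adrenal tissue was not tested. The PRSS35 value of control 238 was 751 even by the reference gene that gave the lowest level. The log2FC of PRSS35 changed sign with this library, being 5.0 ± 1.10 in cold and 5.74 ± 1.10 in AT without it, but −3.56 ± 1.17 and −2.81 ± 1.14 with it.

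ASPG was the one gene of the 6 with no count in any of the 3 control BAT libraries. Each zero allows up to 3 counts per library. All 12 treated lambs had counts, from 2.86 to 53.3 normalized in cold (median 42.6) and from 3.82 to 210 in AT (median 27.9). Lamb 239 with 3 counts and lamb 233 with 4 counts were at about the level that a zero allows, and the other 10 lambs were at 13.02 or more. Against a floor of 3 counts per library in controls 237 and 246, the mean was at least 9.40-fold higher in the cold and at least 14.7-fold higher in the AT lambs. With the floor of all 3 controls the bounds were 5.84 and 9.12.

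**Figure D1:**
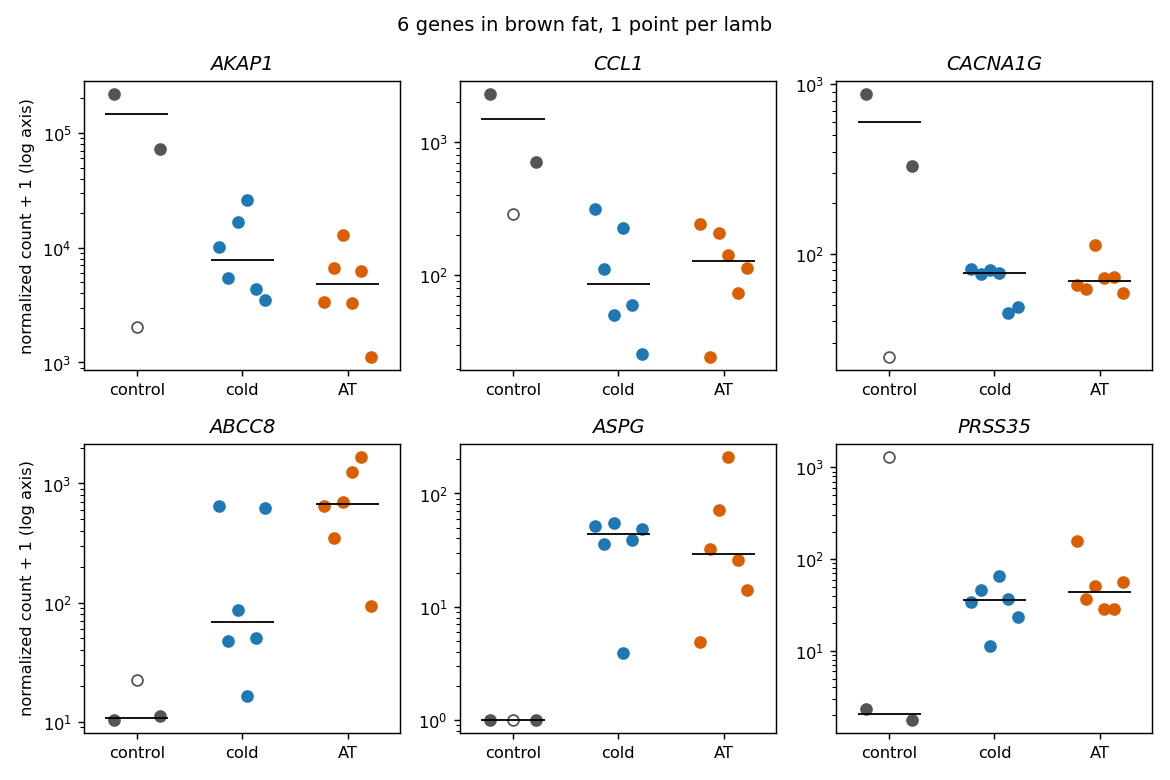
Normalized counts plus 1 in BAT on a log axis, 1 point per lamb in the control (grey), cold (blue) and AT (orange) groups, with black bars at the medians. The open point is control 238, left out of the medians and fits, which lies low for AKAP1 and CACNA1G and at 1302 for PRSS35.

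With the 2 controls of the fits, no gene of the 6 overlapped between controls and treated lambs, as the choice of the genes made likely. The share of all genes without such overlap is not given here, so overlap in this paragraph is a description only. Over all 14905 genes tested in BAT, 1.21% were called for cold and 6.07% for AT against control, where called means an absolute log2FC of at least 1 and an adjusted p under 0.05 by edgeR's quasi-likelihood test. With all 3 controls shown, the groups stayed apart for ASPG in both treatments and for CCL1 and ABCC8 in AT, although CCL1 overlapped when control 238 was scaled by RPL19 alone. They overlapped for AKAP1, CACNA1G and PRSS35 in both treatments and for CCL1 and ABCC8 in cold.

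**Figure D2:**
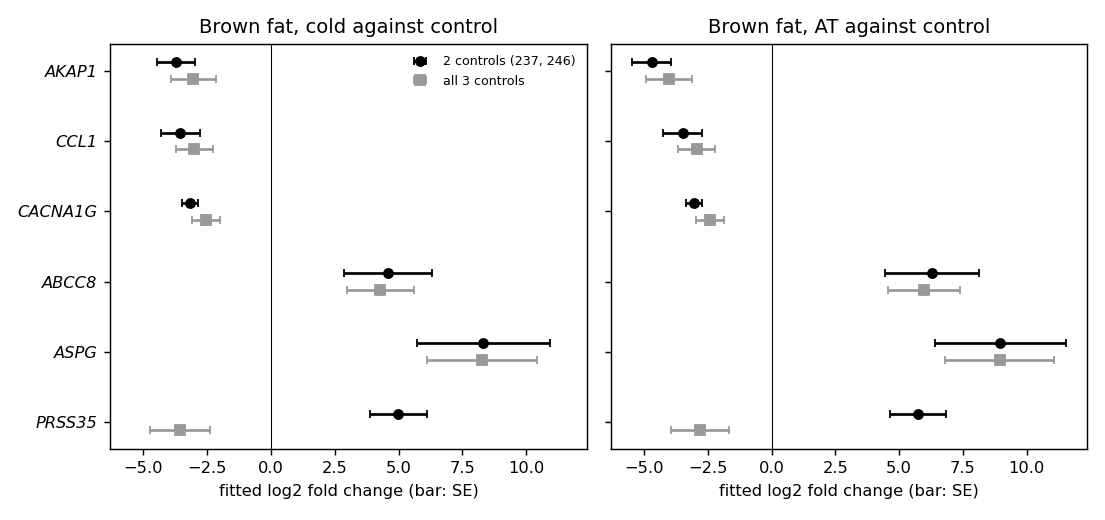
Fitted log2FC of the 6 genes in BAT (x axis, bars are SE) for cold and AT against control, with controls 237 and 246 (black circles) and with all 3 controls (grey squares). PRSS35 crosses 0 when lamb 238 is added, and the other genes keep their side. The ASPG values depend on the prior count, since its controls are at 0, and are no bound.

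The edge of the choice can be read from the order of the genes. Among the 83 genes with a symbol that were called lower in cold without overlap, AKAP1, CCL1 and CACNA1G had the largest log2FC in that order, and TUBA4A followed at −2.91. In AT the same genes were 1st, 3rd and 8th of 368. Of the 324 such genes called higher in AT, ABCC8 and PRSS35 were 2nd and 3rd and GAS2L2 followed at 5.70. ASPG was listed 1st by its fitted value, but that place is not established, since its controls are at 0. PRSS35 was 4th of 69 in cold, behind CYP1A1, IFI6 and ISG15 and just ahead of GAS2L2 at 4.98. ASPG and ABCC8 are not in the cold list, since neither met the threshold for a call there.

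Cold against AT in BAT asked whether temperature moved these genes in lambs of one age. None of the 6 was called by edgeR's quasi-likelihood test, where 0.275% of all genes were. The number of the 6 with an unadjusted p under 0.05 was 0, and DESeq2 called 0. AKAP1 had a log2FC of 0.98 ± 0.59 (adjusted p = 0.508), with a 95% interval of −0.18 to 2.14. ABCC8 had −1.70 ± 0.84 (adjusted p = 0.430), with an interval of −3.35 to −0.05, the largest difference of the 6. That interval is a normal approximation, and the unadjusted p was 0.0626.

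The other 4 genes were closer. CACNA1G differed by −0.13 ± 0.26 (adjusted p = 0.847, interval −0.64 to 0.37), the tightest estimate. CCL1 differed by −0.07 ± 0.61 (adjusted p = 0.970), ASPG by −0.65 ± 0.77 (adjusted p = 0.736) and PRSS35 by −0.74 ± 0.46 (adjusted p = 0.519). For each of the 6 genes the ranges of the cold and AT lambs overlapped.

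The relatives of the 6 genes, listed by family and partner, were examined in the same comparisons. Of 95 genes listed, 79 were in the table and 55 passed the filter in BAT. In cold against control 3 of the 55 were called, all lower, and in AT 5 were called, of which 4 were lower, against 0.637% of all genes called lower and 0.577% called higher in cold, and 3.21% and 2.86% in AT. The median log2FC of the 55 was −0.16 in cold and −0.13 in AT, and −0.10 and −0.03 over all genes. Without control 237, 0 of the 55 were called in either comparison, and over all genes 0 were called in cold and 125 in AT. The fold of a lost call moved little for GOT1, which was then at −1.30 ± 0.34 and −1.45 ± 0.34, but further towards 0 for AKAP12, as given below. None was called between cold and AT by edgeR, and 10 had an unadjusted p under 0.05.

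Among the PKA anchors and subunits, AKAP12, a scaffold at the plasma membrane, fell by 1.72 ± 0.35 on the log2 scale in cold (adjusted p = 0.0320) and fell by 1.99 ± 0.35 in AT (adjusted p = 0.00557). Control 237 carried part of that size, and without it the AKAP12 log2FC was −0.93 in cold and −1.21 in AT. AKAP7, a small anchor that holds PKA near ion channels, rose by 1.71 ± 0.44 in AT (adjusted p = 0.0250). The kinase itself did not pass the test. PRKACA, a catalytic subunit, had a log2FC of −0.40 ± 0.31 in cold and −0.25 ± 0.32 in AT, and PRKAR2B, the regulatory subunit typical of fat, had −0.58 ± 0.51 and −0.32 ± 0.52.

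None of the 10 calcium channel subunits tested was called in BAT. CACNA1H, another low-voltage-activated channel, had a log2FC of 0.48 ± 0.39 in cold (adjusted p = 0.544) and 0.68 ± 0.39 in AT (adjusted p = 0.281), on the other side of 0 from CACNA1G. CACNA1I, the remaining channel of that class, had −0.35 ± 0.97 and −0.30 ± 0.97, too imprecise to place.

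The partner of ABCC8 did not pass the threshold. KCNJ11, the pore of the ATP-sensitive channel, had 0 to 14 counts in the 3 controls, 7 to 41 in the cold and 21 to 46 in the AT lambs, and its log2FC was 1.22 ± 0.78 (adjusted p = 0.437) and 2.42 ± 0.80 (adjusted p = 0.0681). KCNJ8, the alternative pore, fell by 1.05 ± 0.26 in AT (adjusted p = 0.0204) and stood at −0.27 ± 0.27 in cold. Its AT call was lost under TMM scaling (−0.96 ± 0.27) and with all 3 controls (−0.60 ± 0.31, adjusted p = 0.195). ABCC3, an exporter of organic anions that lies 8179 bases from CACNA1G, fell by 1.498 ± 0.308 in cold (adjusted p = 0.0320) and fell by 1.65 ± 0.31 in AT (adjusted p = 0.00670). With all 3 controls the ABCC3 value for cold was −1.08 ± 0.33 (adjusted p = 0.0633). ABCC9, the other sulfonylurea receptor, was not analysed here.

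None of the 7 CC chemokines tested and none of the 4 PRSS proteases tested was called. PRSS23, the closest relative of PRSS35, had a log2FC of 0.45 ± 0.45 in cold and −0.25 ± 0.43 in AT. In the asparagine and aspartate list, GOT1, the cytosolic enzyme that interconverts aspartate and oxaloacetate, fell by 1.34 ± 0.26 in cold (adjusted p = 0.0240) and fell by 1.48 ± 0.26 in AT (adjusted p = 0.00539). ASNS, which makes asparagine, stood at 0.07 ± 0.31 and 0.28 ± 0.32, and ASRGL1, another asparaginase, at −0.20 ± 0.24 and −0.44 ± 0.23.

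**Figure D3:**
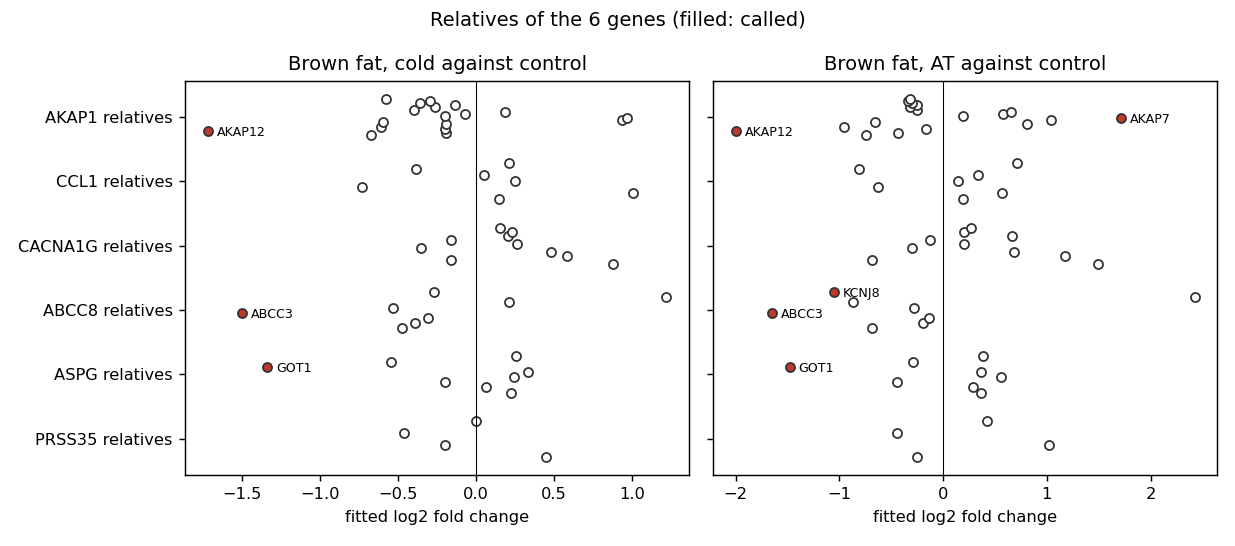
Fitted log2FC in BAT for the 55 relatives tested, 1 circle per gene, in rows by the gene they are related to, with called genes filled and named. In both comparisons AKAP12, ABCC3 and GOT1 were called lower, and AKAP7 was called higher in AT.

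In thyroid tissue the same 6 genes give values that the choice did not use. All thyroid comparisons with control carry a shift, since the median log2FC of all 16122 genes tested was −0.28 for cold and for AT with the reference genes and 0.02 and 0.05 with the TMM scaling of edgeR. AKAP1, ABCC8, ASPG and CACNA1G passed the filter, and CCL1 and PRSS35 did not. In cold against control 1 of these 4 was called, as were 8.04% of all genes. In AT against control 1 of the 4 was called, as were 7.8% of all genes. None was called between cold and AT by edgeR, where 0% of all genes were called, 870 genes had an unadjusted p under 0.05 and DESeq2 called 2 genes.

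AKAP1 fell in the thyroids of the cold lambs. It was at 1705 in control 237, 2371 in control 246 and 1365 in control 238. The cold lambs lay between 796 and 1040 with a median of 893, all below the 3 controls. The log2FC for cold was −1.19 ± 0.27 (edgeR, adjusted p = 0.0106), against a median of −0.28 over all genes. Under TMM scaling it was −0.88 ± 0.24 (adjusted p = 0.0394), below the fold threshold, and without control 246 it was −0.93 ± 0.36 (adjusted p = 0.249). The AT lambs had a median of 882, 5 of them at 947 or less, and the log2FC was −0.95 ± 0.28 (adjusted p = 0.0261), which missed the fold threshold. It was −0.62 ± 0.25 under TMM (adjusted p = 0.124), −0.64 ± 0.25 under median-of-ratios scaling (adjusted p = 0.119) and −0.69 ± 0.37 without control 246 (adjusted p = 0.383).

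Markers of other tissues also differed between these thyroids. AT lamb 240 had AKAP1 at 1976 normalized counts, and skeletal muscle markers in its thyroid summed to 3223200 against a median of 398 in the AT group. Without that lamb the AT difference was −1.23 ± 0.15 (adjusted p = 9.66e-05). The muscle sum was 280700 in control 237 and 135 in control 246, the control with more AKAP1. Brown adipocyte markers in the thyroid summed to 1654, 2832 and 12469 in controls 237, 246 and 238, above the 652 to 1206 of the cold and the 916 to 1138 of the AT lambs. Control 238, with the highest of these sums, had the least AKAP1 of the controls (1365). The part of either tissue in the AKAP1 difference was not tested.

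ABCC8 was again low in the 2 controls of the fit, at 17.4 in lamb 237 and 9.26 in lamb 246. The AT lambs ranged from 14.2 to 558 with a median of 211, and the cold lambs from 18.7 to 223 with a median of 56.4. The log2FC was 4.11 ± 1.37 for AT (adjusted p = 0.0474) and 2.77 ± 1.28 for cold (adjusted p = 0.138). The AT call was lost under both other scalings, with all 3 controls (1.47 ± 1.11, adjusted p = 0.386) and without any of 6 single lambs (233, 236, 237, 241, 243 or 246). Control 238 was at 231, and its thyroid sample carried chromaffin and nerve cell markers at 43760 and parathyroid markers at 51396, against medians of 1336 and 600 over the 3 controls. These sums are not separate, since CHGA is in both lists and made up 42179 of each. PTH, which is in the parathyroid list only, was at 7229 in this sample. The part of these cells in its ABCC8 value was not tested.

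ASPG, which had no count in the control BAT, was present in the control thyroids at 8.69, 10.6 and 34.8 in lambs 237, 246 and 238. The cold lambs had 12.8 to 51.2 (median 27.1) and the AT lambs 3.30 to 43.4 (median 24.96). The log2FC was 1.52 ± 0.75 for cold (adjusted p = 0.158) and 1.29 ± 0.74 for AT (adjusted p = 0.225). With the third control the values were 0.65 ± 0.65 and 0.42 ± 0.64.

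CACNA1G in the thyroid did not share the fall seen in BAT. The controls were at 68.4, 56.9 and 77.5 in lambs 237, 246 and 238, the cold lambs at 22.1 to 219 (median 57.9) and the AT lambs at 45.2 to 238 (median 142). The log2FC was 0.24 ± 0.76 for cold (adjusted p = 0.850) and 1.17 ± 0.80 for AT (adjusted p = 0.310). Markers of the calcitonin-making C cells varied widely between lambs. They summed to 269010 in lamb 241, 184420 in lamb 239 and 120160 in lamb 243, the lambs with the most CACNA1G (238, 219 and 186 normalized counts). The sum was 276 in lamb 245 and 3564 in lamb 232, where CACNA1G was 45.2 and 22.1. The order was not strict, since lambs 246 and 234, with sums of 717 and 957, had CACNA1G at 56.9 and 64.0. Control 238, with a sum of 71179, was at 77.5, but CHGA, which is also in the parathyroid list, made up 42179 of that sum. The part of C cells in the CACNA1G values was not tested.

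CCL1 and PRSS35 were near the limit of detection in the thyroid. CCL1 had 14, 10 and 5 counts in controls 237, 246 and 238, 1 to 7 in the cold lambs and 1 to 11 in 5 AT lambs. AT lamb 240, the one with the muscle markers, had 48 counts. Without a filter, edgeR gave CCL1 −1.91 ± 1.16 for cold (adjusted p = 0.329) and −0.06 ± 1.18 for AT (adjusted p = 0.998).

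PRSS35 had 0 counts in all 3 control thyroids and between 1 and 16 counts in each of the 12 treated ones. The control with 605 counts in BAT, lamb 238, was thus at 0 in its thyroid. Without a filter, edgeR gave adjusted p = 0.0704 for cold and 0.0727 for AT, so the difference did not pass the test. A zero allows up to 3 counts, which is within the range of the treated lambs.

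**Figure D4:**
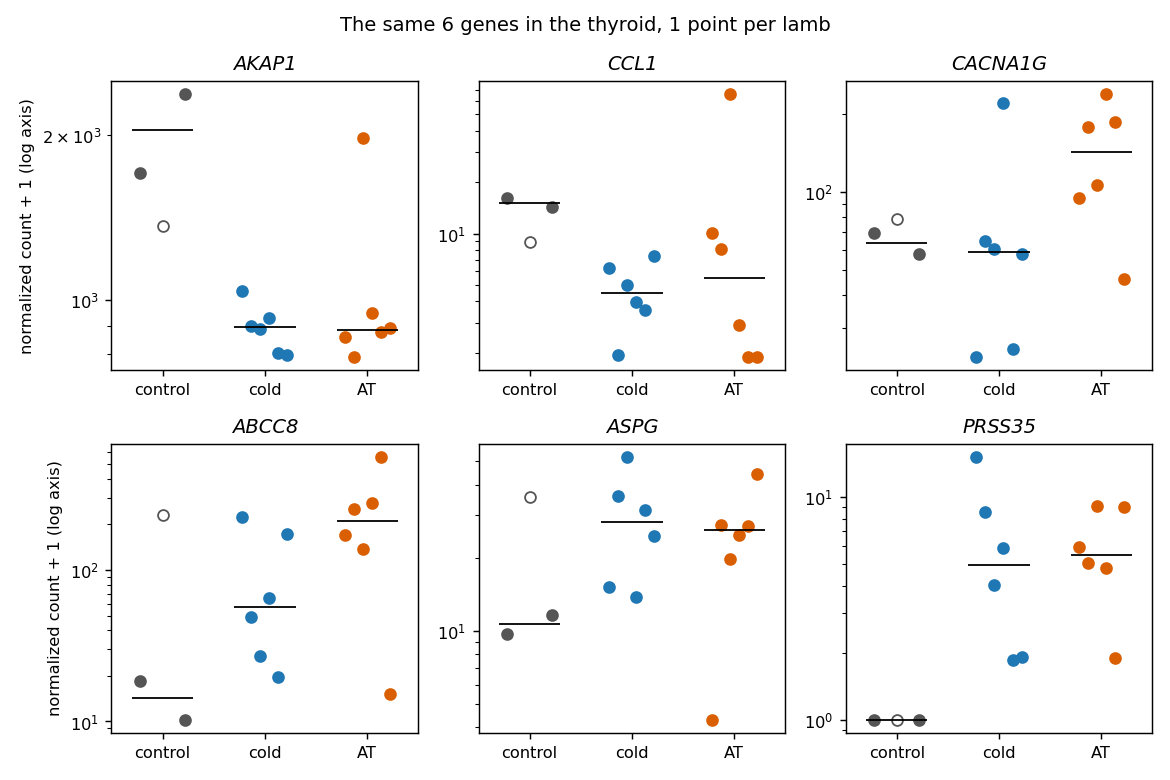
Normalized counts plus 1 in thyroid tissue on a log axis, 1 point per lamb, drawn as in the plot of BAT values, with control 238 open. AKAP1 is lower in 11 of the 12 treated lambs than in the 3 controls, the exception being AT lamb 240 at 1976, and PRSS35 is at 0 in all 3 controls.

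The 2 tissues of a lamb can be set side by side. On a scale common to both tissues, AKAP1 and CCL1 were higher in BAT than in thyroid in all 15 lambs. By CPM, which scales to the library total, AKAP1 was so in 2 of the 3 controls and all treated lambs. PRSS35 was higher in BAT in all 15 lambs on the common scale and in 5 of 6 cold lambs by CPM. In controls 237 and 246 this rests on 1 count in BAT against 0 in the thyroid. A zero allows up to 3 counts, so these 2 lambs show no tissue difference. ASPG was higher in the thyroid in all 3 controls and higher in BAT in 5 of 6 cold and 5 of 6 AT lambs, or in 4 and 2 of them by CPM.

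The high and low ABCC8 lambs were the same in both tissues. The 7 treated lambs with the most ABCC8 in BAT (350 to 1672) had 136 to 558 in the thyroid, and the other 5 (15.3 to 92.2 in BAT) had 14.2 to 64.8. The first set held 5 AT and 2 cold lambs and the second 1 AT and 4 cold lambs. This split was chosen after the values were seen. Within the AT lambs, Pearson's r of the log2 values between tissues was 0.905 (n = 6, exact permutation p = 0.0264, adjusted 0.317 over 12 relations) and Spearman's rho was 0.771 (exact permutation p = 0.103, adjusted 0.544). Without lambs 243 and 245 r was 0.07, so the relation rests on those lambs.

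Within the cold lambs, r was 0.719 (n = 6, exact permutation p = 0.108, adjusted 0.583) and rho 0.486 (exact permutation p = 0.356, adjusted 0.711). It was −0.74 without lambs 232 and 244, on which it rests. None of the 12 relations, 6 genes in each of 2 groups, passed the adjustment.

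**Figure D5:**
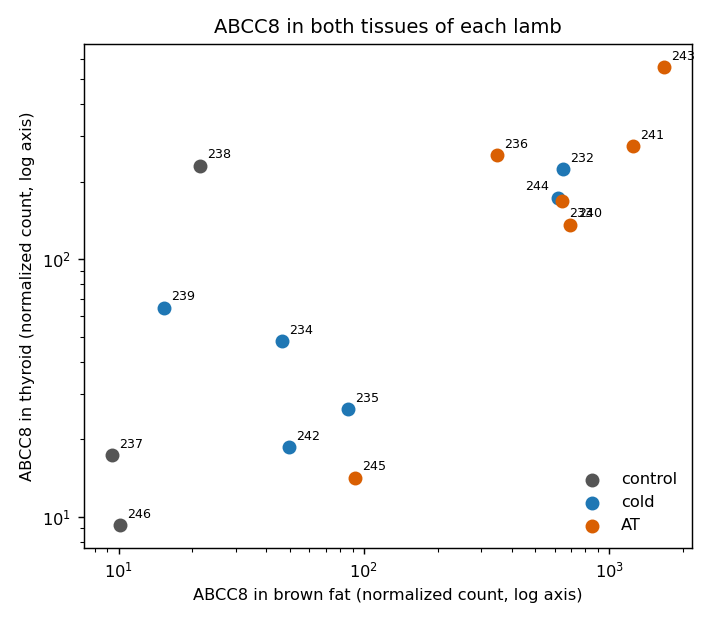
ABCC8 in BAT (x axis) and thyroid (y axis) of each lamb, normalized counts on log axes, scaled within each tissue. The 7 lambs at upper right had 350 to 1672 in BAT and 136 to 558 in the thyroid, and control 238 is at 231 in the thyroid with 21.5 in BAT.

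The genes whose BAT values ran most like those of the 6 were found by Pearson's r of log2(normalized count + 1) over all 15 BAT libraries, as a description. All points share their scaling and the step from control to treated. AKAP1 ran with NOS3, endothelial nitric oxide synthase (r = 0.915), with CPT1A, which brings fatty acids into mitochondria (0.911), and with FADS3 (0.898). Over the 12 treated lambs alone these values were 0.813, 0.812 and 0.855. CACNA1G ran with SCAF1 (0.916), NOS3 (0.890) and AKAP1 itself (0.887), and these fell to 0.534, 0.467 and 0.593 in the treated lambs.

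ABCC8 ran with UROS, an enzyme of haem synthesis (0.908), SGF29 (0.902) and METTL27 (0.900), and these stayed at 0.881, 0.886 and 0.833 in the treated lambs. ASPG ran with ADSSL1 (0.911), PAXX (0.910) and LRRC31 (0.907). CCL1 ran with SDK2 (0.847), ENTPD6 (0.847) and KCNAB3 (0.846), and PRSS35 with AKR7A2 (0.885), MAMDC2 (0.866) and SCCPDH (0.857). Between ABCC8, ASPG and PRSS35, r in the treated lambs was 0.434 for ABCC8 and ASPG, −0.07 for ABCC8 and PRSS35 and −0.67 for ASPG and PRSS35.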

How the data were processed

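The authors extracted RNA with TRIzol, captured mRNA with oligo(dT) beads and sequenced read pairs on the BGISEQ-500. The submitters' processing notes name FastQC 0.11.9, Trimmomatic 0.39, STAR 2.7.7a and featureCounts of Subread 2.0.0, and the genome was Oar_rambouillet_v1.0. The deposited values are whole-number read counts per gene, not normalized, and counting included reads that map to several places. Whether it used the strand is not given in the sources used here. Coordinates are those of the count table, and chromosome numbers were matched through the symbols of a RefSeq table of another build.

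Normalized counts are deposited counts divided by size factors from ACTB, RPL19 and HUWE1, computed over the 14 libraries of a tissue that the fits used. The study's normalized counts per lamb were proportional to 1 library each, which identified its 2 controls. Each tissue had its own edgeR fit (version 4.0.16, R 4.3.3), robust and quasi-likelihood, with the 3 groups together, on genes reaching 10 reads in 10 or more libraries. Benjamini-Hochberg adjustment of the 2-sided p-values ran over all genes tested. SE is the absolute log2FC over the square root of F, and intervals are 1.96 SE on each side. The fits were also run on simulated data, but no outcome of that run is given here. It is therefore no measure of how the fits behave at the wide spread between lambs or the low control counts of these genes. No fit used control 238 except where stated.

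The 6 genes and all lists were chosen with earlier results of these data known. Named genes are the 6, the reference genes, relatives called in BAT against control, 11 fixed relatives, and for each of the 6 the 3 genes with the highest r. Other genes, among them those next in order and the marker genes, were chosen after their values were seen, as were the relations between tissues. NARS and DARS were matched under their older symbols. DESeq2 1.42.0 was an alternative.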

Additional observations from a re-analysis of the deposited data

Results flagged for a closer look

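Among the 24 sets of 6 treated lambs (6 genes, 2 tissues, 2 treatments), 7 held a lamb whose gap to its nearest neighbour exceeded Dixon's limit. For normally distributed values that limit marks about 1 group in 20. The values here were untransformed normalized counts and the sets share lambs, so the 7 cannot be set against that rate. In thyroid tissue, AT lamb 240 stood apart for AKAP1 (1976, next 947) and CCL1 (64.7, next 9.08), and cold lamb 239 for CACNA1G (219, next 64.0). In BAT, AT lamb 240 stood apart for CACNA1G (112, next 72.4), AT lamb 241 for ASPG (210, next 70.8) and AT lamb 233 for PRSS35 (157, next 55.3). Cold lamb 239 was the one low outlier, with ASPG in BAT at 2.86 against 34.6 for the next lamb.

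Control 238, which the fits did not use, exceeded the other controls for ABCC8 in thyroid tissue (231 against 9.26 and 17.4), ASPG in thyroid tissue (34.8 against 8.69 and 10.6) and PRSS35 in BAT (1302 against 0.780 and 1.34).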

How the results depend on the processing

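Of the 6 genes, 0 were called between cold and AT in either tissue under any alternative run. In thyroid cold against control, 1 was called, 0 under TMM or DESeq2's median-of-ratios scaling, 2 by DESeq2's Wald test and 0 to 1 when single lambs were left out (0 without control 246). In thyroid AT against control, 1 was called, 0 under TMM, under median-of-ratios, with all 3 controls, without a filter or with only the 2 groups in the fit, 2 at the adjusted p alone, and 0 to 2 when single lambs were left out (0 without AT lamb 233, 236, 241 or 243 or control 246, and 2 without AT lamb 240). The relatives called in BAT were 3 for cold and 0 to 3 when single lambs were left out, being 0 without control 237 and 1 without control 246 or cold lamb 244. For AT they were 5, 8 by DESeq2's Wald test, 3 with only the 2 groups, and 0 to 8 when single lambs were left out, being 0 without control 237, 2 without control 246 and 8 without AT lamb 236.

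PRSS35 in BAT reversed with all 3 controls, to −3.56 for cold and −2.81 for AT. When single lambs were left out, differences near 0 changed sign: cold against AT ranged in BAT from −0.51 to 0.19 for CCL1 and from −0.20 to 0.029 for CACNA1G, and in thyroid tissue from −0.31 to 0.033 for AKAP1 and from −0.027 to 0.50 for ASPG, while CACNA1G in thyroid cold against control ranged from −0.48 to 0.43.

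Over all genes, the calls in BAT cold against control were 181, and 318 under TMM, 328 under median-of-ratios, 628 by DESeq2's Wald test, 727 with all 3 controls, 383 with only the 2 groups and 0 without control 237. In BAT cold against AT they were 41, 145 by DESeq2's Wald test and 0 with all 3 controls. In BAT AT against control they were 904, 437 with only the 2 groups, 125 without control 237 and 80 without control 246. In thyroid tissue TMM gave 792 in place of 1296 for cold and 744 in place of 1258 for AT, and without control 246 there were 110 and 113. Beyond their construction, the cause of these changes was not tested. No paired analysis was possible because the groups compared within a tissue hold different lambs. Where 1 control is left out, the lone control is assumed to vary like the other groups. Low counts in controls 237 and 246 limit ABCC8 (7 and 13), ASPG (0 in each) and PRSS35 (1 in each) in BAT.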

Other observations

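In thyroid tissue, 59 of the 95 relatives were tested, and 4 were called lower both in cold and in AT against control, where 8.04% and 7.8% of all genes were called. The median log2FC of the 59 was −0.23 and −0.10, against −0.28 over all genes in each comparison. They were AKAP12 with a log2FC of −1.27 ± 0.29 (edgeR, adjusted p = 0.0108) in cold and −1.87 ± 0.29 (adjusted p = 0.00168) in AT, CACNA1H, a low-voltage-activated calcium channel, with −1.80 ± 0.42 (adjusted p = 0.0117) and −1.71 ± 0.42 (adjusted p = 0.0131), the exporter ABCC3 with −2.18 ± 0.32 (adjusted p = 0.00166) and −1.85 ± 0.32 (adjusted p = 0.00244), and GLUL, which makes glutamine, with −1.86 ± 0.39 (adjusted p = 0.00725) and −1.59 ± 0.39 (adjusted p = 0.0129). Under TMM scaling the calls of AKAP12 in cold (−0.98 ± 0.32, adjusted p = 0.0714), CACNA1H in AT (−1.28 ± 0.40, adjusted p = 0.0607) and GLUL in AT (−1.37 ± 0.42, adjusted p = 0.0579) were lost. Single controls decided several of them. Without control 246, CACNA1H was at −0.45 ± 0.44 (adjusted p = 0.676) in cold and −0.36 ± 0.44 (adjusted p = 0.734) in AT, since that control was at 16595 normalized counts against 4065 and 3358 in controls 237 and 238 and 1467 to 4182 in the treated lambs. Without control 237, GLUL was at −0.34 ± 0.34 (adjusted p = 0.511) and −0.07 ± 0.35 (adjusted p = 0.898). Without control 246, AKAP12 in cold was at −1.37 ± 0.38 (adjusted p = 0.129). ABCC3 was called in both thyroid comparisons whichever of these 2 controls was left out. GLUL was chosen after its values were seen. With the reference genes, AKAP12 and ABCC3 were thus called lower in both tissues and both treatments. The BAT values of AKAP12 rested in part on control 237, and without it they were −0.93 in cold and −1.21 in AT. Whether the tissues differ was not tested.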
